A study of Mus musculus with 16 samples.

Results

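The genes that carry water, chloride, sodium and bicarbonate across the cecal epithelium were followed in germ-free and gnotobiotic mice. The 9 genes were the water channels Aqp8 and Aqp4, the apical exchangers Slc26a3 and Slc9a3, the chloride entry route Slc12a2, the chloride channel Cftr, and the carbonic anhydrases Car1, Car2 and Car4. They were taken as 9 of the 18194 genes that the Mouse 430 2.0 GeneChip names, through every probe set annotated to their symbols, 19 of 45101, none of which was shared with another symbol. Of the 19 probe sets, 14 were bright enough to be tested, and these covered all 9 of the 9 genes.

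The large intestine and cecum recover salt and water from the lumen. The exchangers of the apical membrane take up sodium in return for protons and chloride in return for bicarbonate, carbonic anhydrases supply both the proton and the bicarbonate from carbon dioxide, and water follows through aquaporins. Secretion runs the other way, with chloride entering the cell at its base through a cotransporter and leaving at its apex through Cftr.

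The epithelium was taken by laser capture from the cecum of adult NMRI mice on a polysaccharide-rich chow. Germ-free mice (GF) were compared with mice that had carried Bacteroides thetaiotaomicron (Bt), Bifidobacterium longum (Bl) or both species (Bt/Bl) for 10 days. Each of the 4 states was 1 RNA pool of 4 mice, amplified in duplicate, and each amplification was hybridized to its own GeneChip, so that 8 GeneChips were compared. The spread between duplicates is therefore that of amplification and hybridization, a difference between states is a difference between pools, and fewer cells of a type cannot be told apart from less RNA per cell.

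Signals are the linear values deposited by the authors, scaled to a trimmed mean near 1500 on every GeneChip. Any signal under 144.7, the 25th percentile, was set to that floor, and a probe set was tested when both GeneChips of at least 1 state were above the median signal, 583.1. Differences were fitted with limma on the log2 scale over 24865 probe sets and 8 GeneChips. A gene is said to have risen or fallen where the Benjamini-Hochberg adjusted p of its brightest probe set was under 0.05, and SE is the standard error of a log2 difference.

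All 8 of the epithelial marker genes examined were tested, and none of them was called in any colonized state against GF. Calls were rare among all genes too, from 0.0773% to 0.139% in each direction. An unadjusted p under 0.05 was reached by 3 of the 8 with Bt, 0 with Bl and 1 with both. The shares of all genes were 8.97%, 11% and 7.51%. Krt18 was above both GF signals on all 6 colonized GeneChips, and Epcam, Cdh1 and Krt19 were below both with Bt. Whether the states held equal shares of epithelial cells was not tested. The 2 GF GeneChips also stood apart from the other 6 in genes of other kinds. Fabp6, the bile acid binding protein of ileal enterocytes, gave signals from 68029 to 95108 in GF and from 1179 to 1798 elsewhere, and the summed signal of the 10 ileal markers was from 141434 to 171312 in GF and from 27842 to 57093 elsewhere. Fabp6 and Apoa1, the latter from 31104 to 33239 in GF and from 1478 to 3501 elsewhere, held much of the GF sum. Enpep was also below both GF signals on the other 6 GeneChips. Mttp went the other way, with 99.1 and 734 in GF and from 941 to 1810 elsewhere. In Bt, both signals of Apoa4 and of Slc51a were above both GF signals. All mice were described as male, yet Xist, the transcript of the inactive X chromosome, gave from 17157 to 22762 in GF and from 3753 to 11176 elsewhere, and the Y-linked Eif2s3y from 71.3 to 614 in GF and from 3201 to 5657 elsewhere. Igha, the heavy chain of immunoglobulin A made by plasma cells, gave from 95694 to 113964 in GF and from 12171 to 49896 elsewhere. The other 6 were not alike in these genes. Xist gave 7541 and 11176 in Bt/Bl and from 3753 to 5086 in Bt and Bl. Igha gave 49896 and 34067 in Bt/Bl, 25565 and 27712 in Bl, and 12171 and 13110 in Bt. Every comparison below, with GF or between colonized states, carries such differences, and their part in it was not tested.

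The water channel Aqp8 rose in all 3 colonized states, 3.02-fold with Bt, 3.62-fold with Bl and 3.52-fold with both. The sodium/proton exchanger Slc9a3 fell by 3.47-fold in Bt/Bl, while its signals in Bt and Bl did not pass the test. All 4 of these calls were lost when GeneChips were scaled to their median or 75th percentile (adjusted p from 0.111 to 0.294), with log2 fold changes from 1.39 to 1.78 for Aqp8 and of -1.84 and -1.83 for Slc9a3. The other 7 genes were not called in any comparison between states. Against GF, 1 member of 9 was called higher in Bt, where 0.131% of the 12937 named genes tested were called higher. That member was Aqp8 in each state. In Bl the count was 1 of 9, beside 0.0928% of all genes, and in Bt/Bl 1 of 9, beside 0.139%. Called lower were 0 of 9 with Bt, 0 with Bl and 1 with both, where 0.0773%, 0.0773% and 0.124% of all genes were called. At an unadjusted p under 0.05, in either direction, the members past it were 1 of 9 for Bt and 2 each for Bl and Bt/Bl, beside 8.97%, 11% and 7.51% of all genes.

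**Figure D1:**
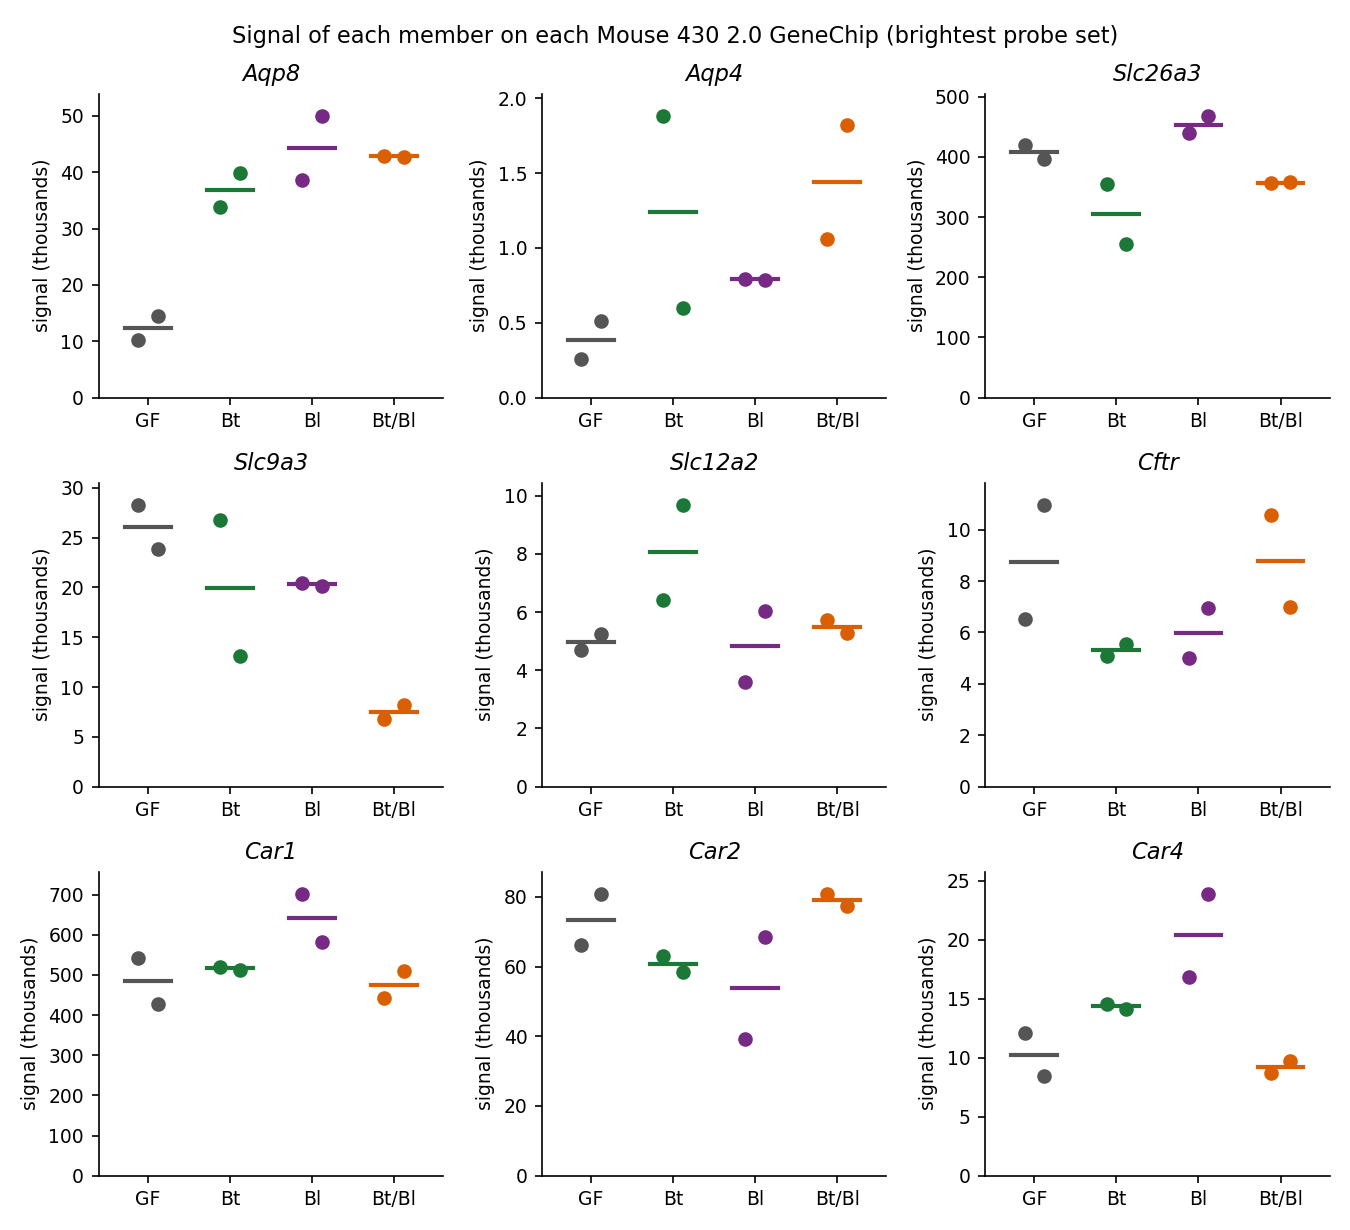
Each panel plots the linear signal, on an axis from 0, of the brightest probe set of 1 gene on the 8 GeneChips, with the points for the duplicates of each colonization state and a line at their mean. The 6 colonized signals of Aqp8 lie between 33809.9 and 49985, above both GF signals, and the Bt/Bl signals of Slc9a3, 6844 and 8193, lie below those of every other state.

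The bases before the start of transcription of Aqp8 and Slc9a3 are shown because these were the members that rose or fell. They are the 250 bases upstream in RefSeq (GRCm38.p6), on the plus strand at chr7:123462044-123462293 for Aqp8 and at chr13:74121163-74121412 for Slc9a3. Capitals mark a CDX-type motif, TTTAT, in Aqp8 and GC boxes, GGGCGG on either strand, in Slc9a3.
Aqp8: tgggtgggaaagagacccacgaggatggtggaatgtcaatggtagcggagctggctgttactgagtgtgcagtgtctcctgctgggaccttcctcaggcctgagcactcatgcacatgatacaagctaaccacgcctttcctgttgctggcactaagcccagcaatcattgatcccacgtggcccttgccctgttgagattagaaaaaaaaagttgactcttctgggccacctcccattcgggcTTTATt
Slc9a3: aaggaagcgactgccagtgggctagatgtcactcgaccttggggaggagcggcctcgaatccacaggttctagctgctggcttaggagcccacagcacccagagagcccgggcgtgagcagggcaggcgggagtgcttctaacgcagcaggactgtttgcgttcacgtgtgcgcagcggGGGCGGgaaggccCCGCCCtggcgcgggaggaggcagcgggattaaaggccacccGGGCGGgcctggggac
TTTAT stood once in the Aqp8 window, from 6 to 2 bases before the start, and at least once in 37.3% of 32851 promoters of that length. The Slc9a3 window held the GC box 3 times, at 71 to 66, at 58 to 53 on the reverse strand and at 16 to 11 bases before the start, and 32.7% of promoters held at least 1. Neither window contained TATAAA or AGATAA on either strand, which 12.4% and 9.99% of promoters did. The share of G and C was 52.4% for Aqp8, equal to the median over all promoters, and 67.6% for Slc9a3. Of the 9 members, 5 had an entry in the promoter table (Aqp8, Slc26a3, Slc9a3, Cftr and Car4). Among the other 3, Slc26a3 had TATAAA from 30 to 25 bases before its start, which overlaps TTTAT read on the reverse strand, Cftr had 6 GC boxes, and Car4 had none of these 4 motifs. A match of letters is a description of the sequence and not a site of binding.

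Aqp8 encodes a water channel of the surface cells of the colon. Its signal was 10169 and 14517 in GF, 33809.9 and 39872 with Bt, 38597 and 49985 with Bl, and 42879.9 and 42730.3 with both. Both GF GeneChips were lower than each of the other 6, and no colonized duplicate came within 2-fold of the higher GF signal. The log2 fold change against GF was 1.60 with Bt (SE 0.23, adjusted p = 0.0057 in the limma fit), 1.85 with Bl (adjusted p = 0.0015) and 1.82 with both species (adjusted p = 0.0021). The order of mean signals was GF, Bt, Bt/Bl and Bl. No pair of colonized states was called apart, although both Bt/Bl signals lay above both Bt signals, with log2 differences of 0.22 (95% interval -0.28 to 0.72) for Bt/Bl against Bt and -0.04 (-0.53 to 0.46) for Bt/Bl against Bl. The summed signal of the 7 goblet cell markers was from 860851 to 1013918 in GF, from 1175998 to 1193590 with Bt, from 1089761 to 1389362 with Bl and from 861108 to 940122 with both, so that it was above GF in the mono-associations and overlapped it in Bt/Bl. Of the 7, Muc2, the gel-forming mucin, rose in Bt (log2 fold change 1.55, adjusted p = 0.0079) and Clca1 in Bl, and none was called in Bt/Bl. Spink4, a secreted goblet cell protein, gave 44905 and 43044 in GF and from 82259 to 108445 on the 6 colonized GeneChips, all above GF as for Aqp8, without passing (adjusted p = 0.0957, 0.0806 and 0.126 in Bt, Bl and Bt/Bl). Muc2 and, by little in Bt, Clca1 were also above GF on all 6. Other markers of the 7 went the other way in 1 state: Agr2 in Bl, and Tff3 and Fcgbp in Bt/Bl, had both signals below both GF signals. Zg16 held most of the summed signal in every state. The part of any cell type in the rise of Aqp8 was not tested.

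Aqp4 is the water channel of basolateral membranes. The brightest of its 3 probe sets gave 259.7 and 514.9 in GF, 1881 and 600.7 with Bt, 794.7 and 784.4 with Bl, and 1061 and 1823 with both. All 6 colonized signals were above both GF signals, but 1 Bt signal was only slightly above the higher GF signal. The log2 fold changes of 1.54, 1.11 and 1.93 in Bt, Bl and Bt/Bl had an SE of 0.91 and adjusted p values of 0.651, 0.672 and 0.681. A dimmer probe set gave 198.1 and 163.3 in GF, 891.6 and 715.1 with Bt, 1234 and 80.4 with Bl, and 588.3 and 142.6 with both. There 1 of the Bl and 1 of the Bt/Bl GeneChips fell under the floor, and only the Bt duplicates were both above GF. The third was too dim to be tested, with signals from 21.4 to 1271. Over the 8 GeneChips the tested probe sets of Aqp4 correlated at r = 0.24.

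Slc9a3 encodes NHE3, the apical exchanger that brings sodium into the enterocyte in return for protons. Signals of its bright probe set were 28279 and 23817 in GF, 26732 and 13163 with Bt, 20487 and 20141 with Bl, and 6844 and 8193 with both. Both Bt/Bl signals were below the other 6, and the duplicates of Bt enclosed those of Bl and overlapped those of GF. Against GF the log2 fold change was -1.79 in Bt/Bl (SE 0.29, 95% interval -2.40 to -1.18, adjusted p = 0.0122 in the limma fit), -0.47 in Bt (adjusted p = 0.663) and -0.35 in Bl (adjusted p = 0.666). Mean signals ran from Bt/Bl through Bt and Bl to GF, and no pair of the 3 upper states was called apart, although both Bl signals lay below both GF signals. In the fit on the log2 scale Bt/Bl was also 2.51-fold lower than Bt and 2.71-fold lower than Bl, which did not pass the correction (adjusted p = 0.14 and 0.108). The summed signal of the 7 crypt proliferation markers was from 32788 to 45453 in Bt/Bl and from 21692 to 33798 in the other states, so that it overlapped only Bl. Much of its highest value came from Mki67, which gave 21106 on Bt/Bl 9132 and 9373 on Bt/Bl 9133, and none of the 5 markers tested was called. The part of proliferating cells in the fall of Slc9a3 was not tested. A second probe set of Slc9a3, from 70.8 to 1361, was too dim to be tested.

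Slc26a3 encodes DRA, which takes up chloride and releases bicarbonate at the apical membrane, and 4 probe sets measured it. The brightest gave 420244 and 396139.8 in GF, 354835 and 254557 with Bt, 439450.4 and 467918 with Bl, and 357066 and 357893 with both. Both Bl signals were above GF and those of Bt and Bt/Bl were below it. The log2 fold changes were -0.44 (95% interval -1.06 to 0.18), 0.15 (-0.47 to 0.78) and -0.19 (-0.81 to 0.43) in Bt, Bl and Bt/Bl, with adjusted p values of 0.694, 0.876 and 0.955. The sign in Bl turned with every other scaling of the GeneChips, to -0.19 with median, -0.11 with 75th percentile and -0.11 with quantile scaling. In Bt the log2 fold changes of the other 3 probe sets were -0.78, -0.49 and -1.59, none of which passed, the nearest having an adjusted p of 0.344. In Bl they were -0.03, -0.40 and 0.14, and in Bt/Bl -0.16, -0.45 and 0.21. All 4 probe sets thus had a negative value in Bt, without a call, and they differed in sign in the other states. Pairs of these probe sets correlated at r from 0.10 to 0.72 over the 8 GeneChips.

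**Figure D2:**
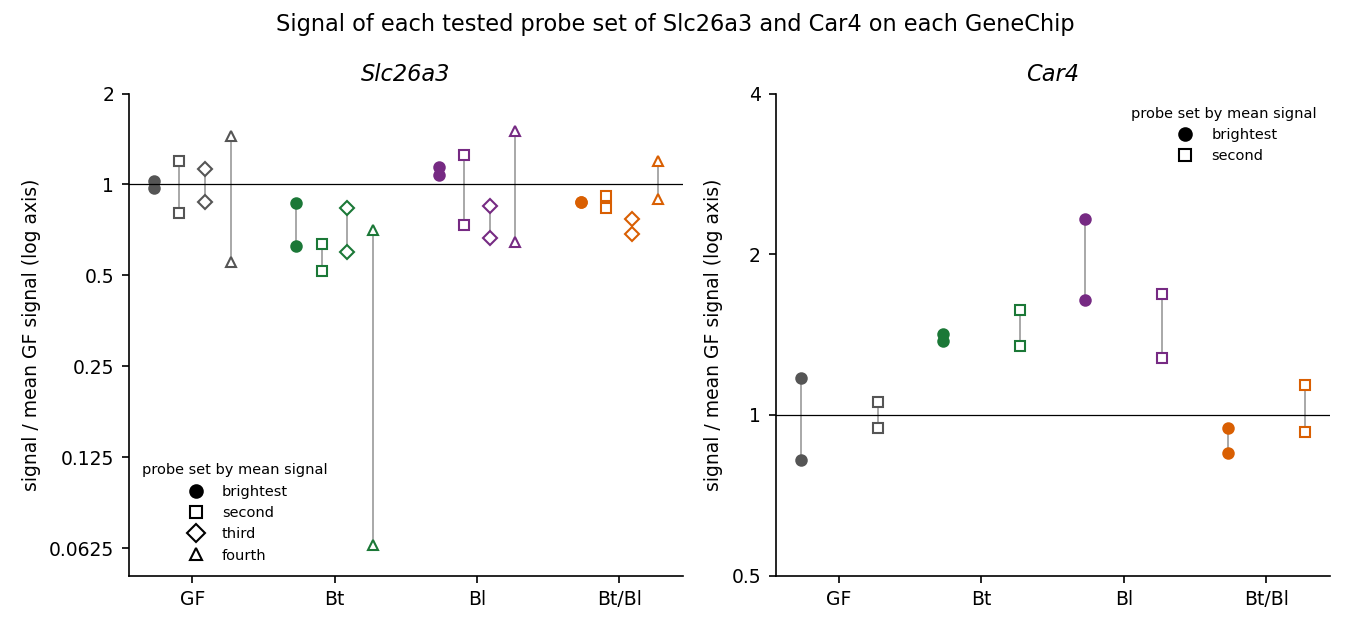
Signals of the tested probe sets of Slc26a3 (4) and Car4 (2) on each GeneChip, divided by the mean GF signal of the same probe set and drawn on a log axis, with a line joining duplicates. The symbols rank the probe sets by mean signal. Both Car4 probe sets lie above their GF signals in Bt and Bl, while the dimmest Slc26a3 probe set has 1 Bt GeneChip at 73.9, under the floor.

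Slc12a2 encodes NKCC1, the basolateral cotransporter that loads the cell with chloride, and Cftr encodes the apical channel through which chloride and bicarbonate leave. Slc12a2 gave 4711 and 5265 in GF, 6421 and 9683 with Bt, 3597 and 6055 with Bl, and 5719 and 5276 with both. Its highest signals were both in Bt, and the Bl duplicates enclosed those of GF and Bt/Bl. The log2 fold changes were 0.66 (95% interval -0.02 to 1.35), -0.09 (-0.78 to 0.59) and 0.14 (-0.55 to 0.83) in Bt, Bl and Bt/Bl, with adjusted p values of 0.543, 0.938 and 0.978. The other 2 probe sets of Slc12a2 were too dim to be tested, at no more than 1074.

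Cftr gave 6525 and 10959 in GF, 5085 and 5542 with Bt, 5002 and 6945 with Bl, and 10556 and 7009.5 with both. The signals of GF and Bt/Bl covered nearly the same range, and both Bt signals were below it. Against GF the log2 fold changes were -0.67 (95% interval -1.35 to 0.01), -0.52 (-1.20 to 0.16) and 0.02 (-0.65 to 0.70), with adjusted p values of 0.533, 0.555 and 1. A second probe set of Cftr, at no more than 567.7, was not tested.

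Among the carbonic anhydrases, Car1 and Car2 are cytosolic and Car4 is held at the apical membrane. Car1 gave 540835 and 426879.6 in GF, 520633 and 513009 with Bt, 701343 and 582007 with Bl, and 441476 and 510343.5 with both. Only the Bl duplicates lay above GF, and the signals of Bt and Bt/Bl lay within the GF range. The log2 fold changes were 0.11, 0.41 and -0.02 in Bt, Bl and Bt/Bl, each with an SE of 0.31 and adjusted p values from 0.647 to 1.

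Car2 gave 66117 and 80719 in GF, 63032 and 58473 with Bt, 39209 and 68452 with Bl, and 80811 and 77309 with both. The lowest was 1 of the Bl GeneChips, whose duplicate was inside the GF range. Against GF the log2 fold changes were -0.27 (95% interval -0.82 to 0.28), -0.50 (-1.04 to 0.05) and 0.11 (-0.43 to 0.66), with adjusted p values of 0.799, 0.485 and 0.978.

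The brighter of 2 Car4 probe sets gave 12049 and 8461 in GF, 14558 and 14128 with Bt, 16846 and 23867 with Bl, and 8711 and 9701 with both. Both mono-associated states were above GF, Bl above Bt, and the Bt/Bl signals lay inside the GF range. Against GF the log2 fold change was 0.51 in Bt (adjusted p = 0.555), 0.99 in Bl (SE 0.25, unadjusted p = 0.0014, adjusted p = 0.159) and -0.14 in Bt/Bl (adjusted p = 0.97). The dimmer probe set gave 3062 and 2735 in GF, 4561 and 3904 with Bt, 3705 and 4883 with Bl, and 3299 and 2688 with both. It had both mono-associated states above GF as well, with log2 fold changes of 0.54, 0.56 and 0.04 and no call, and correlated with the brighter one at r = 0.85. Red cells hold Car1 and Car2 too, and the summed signal of the 4 erythroid markers that had a probe set, of 9 listed, was from 911.7 to 1599 in GF, from 2858 to 3117 with Bt, from 2421 to 2535 with Bl and from 1481 to 2357 with both. Only 2 of the 4 were bright enough to be tested, without a call, and the 4 did not move together. Hba-a1 gave 337.8 and 620.9 in GF but 49.8 and 167.5 with Bl, and Slc4a1 gave 1198 and 86.5 on the Bt duplicates. The part of red cells in the signals of Car1 and Car2 was not tested.

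**Figure D3:**
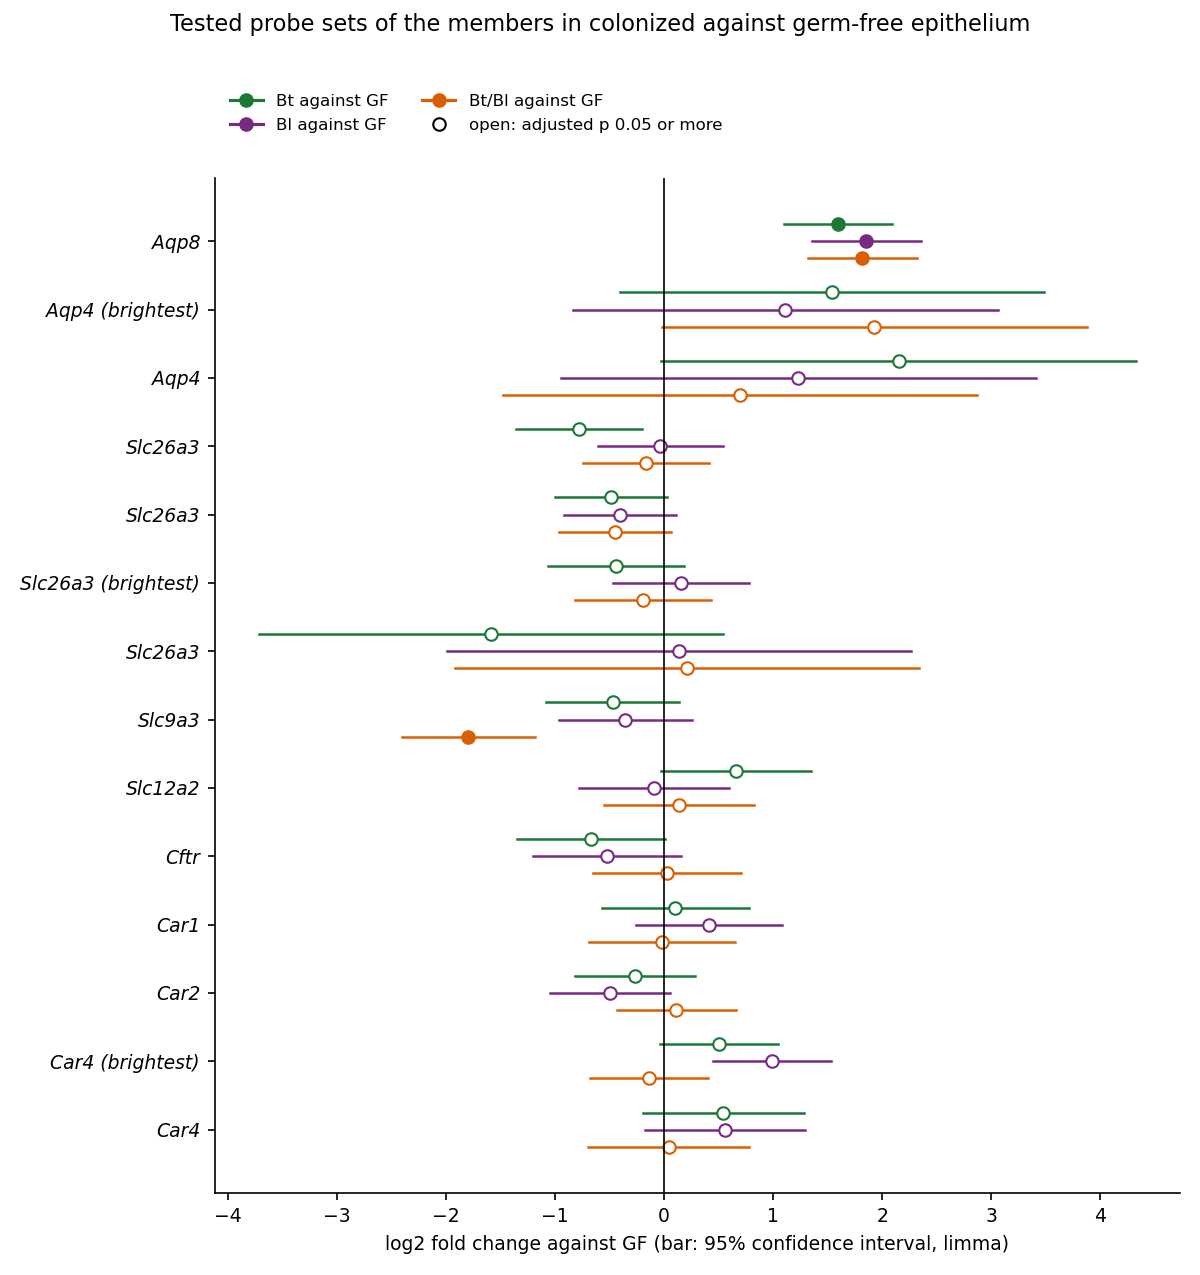
The horizontal axis is the log2 fold change of each of the 14 tested probe sets in Bt, Bl and Bt/Bl against GF, with bars for the 95% confidence interval of the limma fit and filled points where the adjusted p was under 0.05. The filled points are Aqp8 in all 3 states, from 1.60 to 1.85, and Slc9a3 in Bt/Bl, at -1.79.

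Duplicates that did not overlap with those of GF were common in the whole table as well as among the members. In Bt, 4 of 9 members (Aqp8, Aqp4, Slc12a2 and Car4) had both signals above both GF signals and 3 (Slc26a3, Cftr and Car2) had both below, where 20.9% and 18.5% of all genes did. In Bl these were 5 (Aqp8, Aqp4, Slc26a3, Car1 and Car4) and 1 (Slc9a3), beside 21.7% and 18.3% of all genes. Bt/Bl had 3 above (Aqp8, Aqp4 and Slc12a2) and 2 below (Slc26a3 and Slc9a3), beside 21% and 20%. The median log2 fold change over the 9 members was 0.11, 0.15 and 0.02 in Bt, Bl and Bt/Bl, and over all named genes 0.0061, 0.0012 and 0.0018. The 3 comparisons share the GF GeneChips, and Aqp4 passed the filter only through its colonized signals.

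Bi-association was next set against each mono-association, to see where the second species went with a different level. No member was called in Bt/Bl against Bt, where 0.0386% of all genes were called higher and 0.0464% lower, or against Bl, where these were 0.0696% and 0.0155%. At an unadjusted p under 0.05 there were 3 members against Bt (Slc9a3, Cftr and Car4) and 3 against Bl (Slc9a3, Car2 and Car4), beside 10.2% and 11.3% of all genes. Car4 was 1.56-fold lower in Bt/Bl than in Bt (adjusted p = 0.38) and 2.18-fold lower than in Bl (SE 0.25 on the log2 scale, adjusted p = 0.116), neither of which passed. Cftr was 1.62-fold higher than in Bt (adjusted p = 0.46) and Car2 1.53-fold higher than in Bl (adjusted p = 0.364), again without a call. Between the mono-associations no member was called, where Bl against Bt had 0.00773% of all genes called higher and 0.0464% lower. Slc12a2 alone of the members had an unadjusted p under 0.05 there, with an adjusted p of 0.362 in the limma fit and a fitted level 1.69-fold lower in Bl, and 10.8% of all genes were past that threshold. Duplicates that did not overlap were again common: against Bt, 4 members were higher in Bt/Bl and 4 lower (21.5% and 22.2% of all genes), against Bl 3 were higher and 4 lower (20% and 21.7%), and in Bl against Bt 3 were higher and 1 lower (18.1% and 18.5%).

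The excess, defined as the log2 fold change of Bt/Bl against GF minus the sum of those of Bt and Bl, measured how far bi-association departed from the added effects of its species. No member was called for it, where 0.0773% of all genes were called above 0 and 0.0541% below. Aqp8 had an excess of -1.63 (SE 0.33, adjusted p = 0.118), since its rise in Bt/Bl was about as large as in either mono-association. Car4 had -1.63 (SE 0.36, adjusted p = 0.129) and Slc9a3 -0.97 (adjusted p = 0.356), whereas Cftr had 1.22 (adjusted p = 0.298) and Car2 0.88 (adjusted p = 0.356). These 5 of 9 members had an unadjusted p under 0.05, beside 11.8% of all genes, and the median excess of the members was -0.53 beside -0.0086 over all genes. Scaling every GeneChip to its median signal instead raised the excess of each of the 9 members by 0.50 on the log2 scale, and with quantile normalization that of Aqp8 was called (adjusted p = 0.0374).

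**Figure D4:**
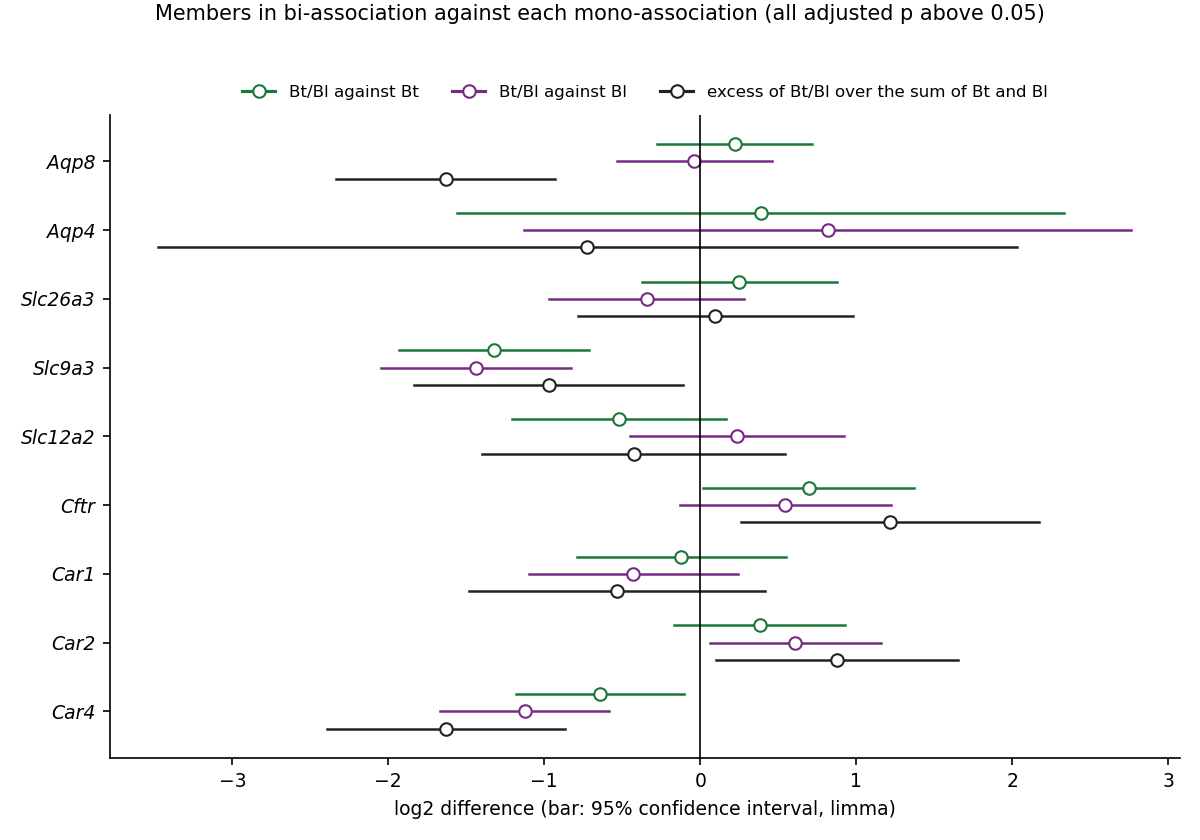
For the brightest probe set of each of the 9 genes, points give the log2 difference of Bt/Bl against Bt, that against Bl, and the excess of bi-association over its added mono-associations, with bars for the 95% confidence interval of the limma fit. All points are open because no adjusted p was under 0.05. The excess of Aqp8 and of Car4 is -1.63, and that of Cftr is 1.22.

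The calls of Aqp8 and Slc9a3 depended on the scaling, the settings of the fit and which GeneChips entered it, although the sizes moved little. Beside the scalings above, all 4 calls were lost with no filter, with no intensity trend and with only the GeneChips compared, where adjusted p values were from 0.153 to 0.381 for Aqp8 and from 0.121 to 0.526 for Slc9a3. All 4 stood with quantile normalization, with no floor and with the filter at the 75th percentile, and with the floor at the median that of Slc9a3 was lost (adjusted p = 0.0857). When single GeneChips were dropped, Aqp8 stayed between 1.34 and 1.85 (log2 fold change) with Bt, 1.60 and 2.11 with Bl, and 1.56 and 2.07 with both. In Bl the call of Aqp8 was lost only without GF GeneChip 9128 (adjusted p = 0.141). In Bt/Bl it was lost without GF 9128 and without either Bt/Bl GeneChip, 9132 or 9133, and in Bt without GF 9128, Bt 9130, Bt 9443, Bt/Bl 9132 or Bt/Bl 9133, with adjusted p values up to 0.330 in Bt and 0.216 in Bt/Bl. Slc9a3 in Bt/Bl stayed between -1.92 and -1.66 and was called only without Bt 9130 or Bt 9443, with adjusted p values up to 0.514 in the other fits. Leaving out 1 GeneChip leaves its state with 1, which is then assumed to vary like the others, and fewer residual degrees of freedom than the 4 of the whole fit.

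**Figure D5:**
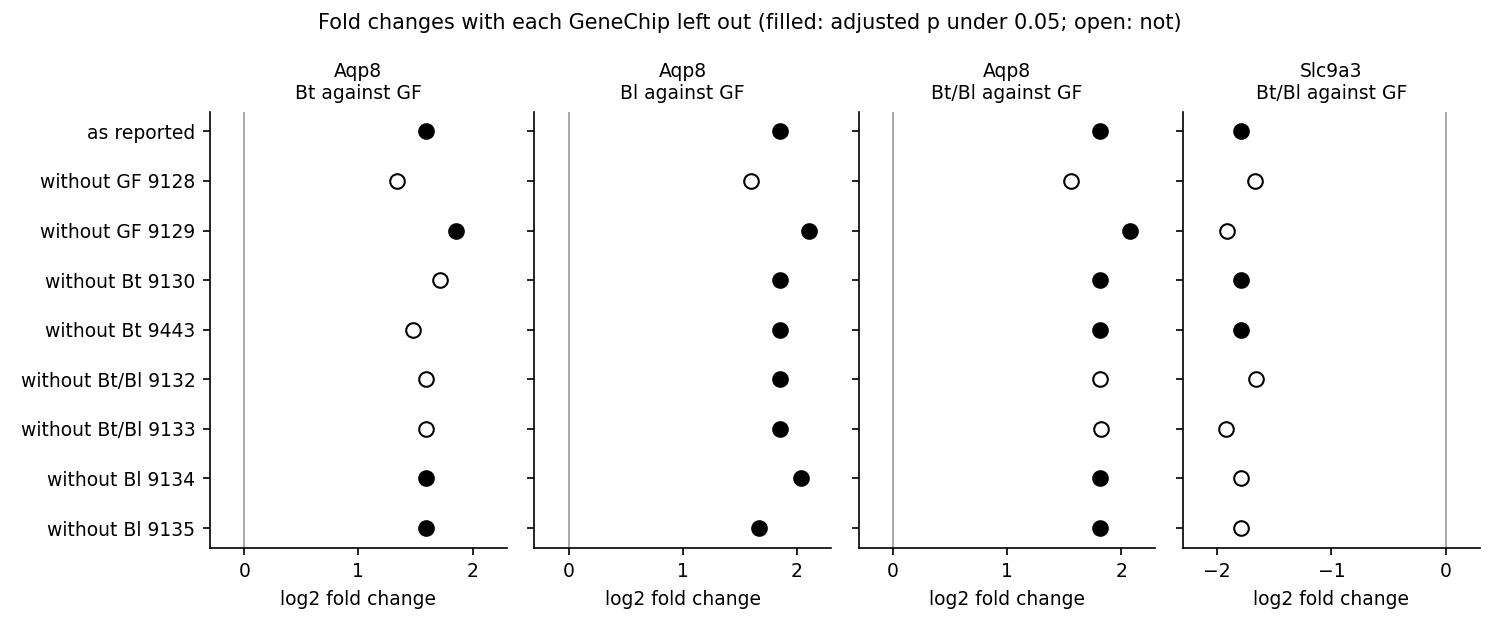
The 4 calls against GF, as log2 fold changes in the fit of all 8 GeneChips (top) and with each GeneChip, named by state and number, left out in turn. Filled points have an adjusted p under 0.05. The call of Aqp8 in Bl is open in 1 of 8 such fits, that in Bt/Bl in 3, that in Bt in 5, and that of Slc9a3 in 6.

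Other genes of epithelial ion and water transport were read from lists of their families, of which the gene with the smallest p against GF in each list is named. Beside each list stand the shares of all genes called against GF, from 0.0773% to 0.139% in each direction. None of the 5 tested aquaporins of 9 others listed was called. Aqp7, a channel for water and glycerol, was tested only through its Bl signals. It was at or under the floor on both GF GeneChips, and the fitted level of its Bl duplicates was 6.43-fold above the floor, which did not pass (adjusted p = 0.078). On the log2 scale this was 2.69, and 2.44 without Bl 9134 or 2.93 without Bl 9135, the latter with an adjusted p of 0.0373. Of 16 tested genes among 23 other chloride and bicarbonate transporters and channels, 1 was called, in Bl. This was Clca1, a secreted goblet cell protein that modulates chloride channels, with 33547 and 35968 in GF, 36004 and 36349 with Bt, 85225 and 78138 with Bl, and 37098 and 41467 with both. It rose 2.35-fold in Bl (SE 0.20 on the log2 scale, adjusted p = 0.0194 in the limma fit). This call stood with only 1 of the 8 GeneChips left out, Bl 9135, and in 3 of the 9 other settings of scaling, floor, filter and fit. The log2 fold change was from 0.89 to 1.33 over all of these.

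None of 7 tested sodium exchangers, channels and pump subunits (12 listed) was called. Slc9a8, an apical exchanger related to Slc9a3, was tested only through its Bl signals. It was under the floor on both GF GeneChips, while the fitted level of its Bl duplicates was 7.29-fold above the floor, without passing (adjusted p = 0.0957). The log2 value of 2.87 was 2.18 without Bl 9134 (adjusted p = 0.25) and 3.55 without Bl 9135 (adjusted p = 0.0273), so that 1 GeneChip moved it by over 1.5-fold and decided whether it passed. Of the 5 tested potassium channels (6 listed) and the 9 tested carbonic anhydrases (13 others listed) none was called. Kcnn4, a calcium-activated channel, had log2 fold changes of 0.69, -0.59 and 0.20 in Bt, Bl and Bt/Bl, and Car3, an isoform of muscle and fat, had -0.74, -2.14 and -1.85. Single GeneChips moved the values of Car3 by over 1.5-fold, to -1.09 without Bl 9134 and -3.19 without Bl 9135 in Bl, and to -2.54 without Bt/Bl 9132 and -1.16 without Bt/Bl 9133 in Bt/Bl. Among 13 tested PDZ scaffolds and cyclic nucleotide regulators of transport (15 listed) 1 was called, lower in each colonized state. Of all genes 0.0773%, 0.0773% and 0.124% were called lower in Bt, Bl and Bt/Bl. The 1 called was Pdzk1, which encodes a scaffold that binds Slc9a3, Cftr and other apical transporters. Pdzk1 gave 2305 and 1863 in GF and from 38.7 to 95 on the 6 colonized GeneChips, all of them under the floor. It was therefore at least 14.3-fold lower in each colonized state, taken against the floor (adjusted p = 0.0161, 0.0194 and 0.0161 in Bt, Bl and Bt/Bl, in the limma fit). Pdzk1 was tested only through its high GF signals. Since all 6 colonized values were set to the same floor, they had no spread in the fit and gave the same fold change in each state. The adjusted p values carry both limits. Without GF 9129 these calls of Pdzk1 stood, and without any other single GeneChip they were lost, with log2 fold changes from -3.99 to -3.69. In the 9 other settings of scaling, floor, filter and fit they stood in 3 for Bt, 3 for Bl and 1 for Bt/Bl. There the smallest log2 fold change was -1.83. Pdzk1 is also a gene of the small intestine. The ileal markers Fabp6 and Apoa1 given above were lower on all 6 colonized GeneChips too, whereas the ileal marker Mttp was higher on all 6. The part of ileal cells in the fall of Pdzk1 was not tested.

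The genes most like a called member were ranked by Pearson's r of log2 signals over the 8 GeneChips, which hold only 4 pools. Nearest to Aqp8 were Retnlb (r = 0.99), which encodes a secreted goblet cell protein, Pxdc1 (0.98), 5430416N02Rik (0.97), Saa1 (0.97), an acute phase protein, and the Y-linked Eif2s3y (0.97). Retnlb had mean signals of 32781 in GF and from 85023 to 93935 in the colonized states. Nearest to Slc9a3 were Zfp365 (0.98), Mdh2 (0.98), the mitochondrial malate dehydrogenase, Sycn (0.98), a protein of zymogen granules, Rplp0 (0.97), a ribosomal protein, and Fhl1 (0.96). Sycn had mean signals of 30618 in GF, 21026 with Bt, 24964 with Bl and 8805 with both, and fell in Bt/Bl (log2 fold change -1.80, adjusted p = 0.0049). Within the members the highest r were those of Cftr with Car2 (0.77), Car1 with Car4 (0.77) and Aqp8 with Aqp4 (0.72), and the lowest those of Car1 with Car2 (-0.87), Slc26a3 with Slc12a2 (-0.79) and Cftr with Car1 (-0.78). These values describe 8 GeneChips that share their scaling and, within a state, their RNA.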

How the data were processed

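Laser-captured cecal epithelium of 4 colonization states was measured on 8 Mouse 430 2.0 GeneChips, 2 per state, each pair being duplicate amplifications of 1 RNA pool. The deposited values are linear signal intensity from MAS5, as the submitters' processing notes name it, and every GeneChip has a trimmed mean near 1500. The authors deposited no detection calls in the table used here. No replicate spread between animals was measured, so p-values cover amplification and hybridization only, and the number of GeneChips limits the precision.

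The 64 control probe sets were left out. Intensity was floored at 144.7 (25th percentile), log2 transformed and tested in limma 3.58.1 (R 4.3.3) with lmFit, contrasts and eBayes with an intensity trend, on the 24865 probe sets with both GeneChips of at least 1 state above 583.1 (50th percentile). P-values were adjusted over all of them (Benjamini-Hochberg). Each gene was read from its brightest tested probe set. Probe sets were named from the platform annotation, with symbols brought up to date through gene identifiers: 34958 had 1 symbol, 932 several and 9211 none. The limma fit and its correction were run on simulated data with 200 changed probe sets in each of 3 draws. Those data were drawn after the floor and filter, so scaling, floor, filter and differences between pools were not tested by them.

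Named were all 9 members, in each list of other transport genes the gene with the smallest p against GF, and the 5 genes most like a called member. Members and lists were chosen with earlier results of these data known. Alternatives were other scalings, floors and filters, no trend, only the GeneChips compared, each GeneChip left out, and, added after the signals had been seen, the fit without both GF GeneChips. The custom GlycoGeneChip holds no member under its listed symbols and was not used. Promoters and their coordinates are those of RefSeq (GRCm38.p6).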

Additional observations from a re-analysis of the deposited data

Results flagged for a closer look

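The brightest probe set of Slc26a3, the apical chloride/bicarbonate exchanger, lay on opposite sides of GF in the colonized states, without a call. Both duplicates were below both GF signals in Bt (log2 fold change -0.44) and in Bt/Bl (-0.19), and both were above them in Bl (0.15). This did not hold with the other scalings: with median, 75th percentile and quantile scaling the value in Bl was -0.19, -0.11 and -0.11, on the same side as the others. The difference of Bl against Bt was 0.59 on the log2 scale (SE 0.29, unadjusted p = 0.0607, adjusted p = 0.45 in the limma fit), so that it did not pass. The other 3 probe sets of Slc26a3 had 0.74 (adjusted p = 0.265), 0.09 (adjusted p = 0.922) and, for the dimmest, 1.73 (adjusted p = 0.526) for the same difference.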

How the results depend on the processing

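No paired analysis was possible because the GeneChip numbers in the labels are unique and the states share none. The number of members called against GF, 1 with Bt, 1 with Bl and 2 with both, became 0 in each with median or 75th percentile scaling, no filter, no intensity trend or only the GeneChips compared, and 1 in Bt/Bl with the floor at the median, where Slc9a3 had an adjusted p of 0.0857. With each GeneChip left out these numbers ranged from 0 to 1 in Bt and in Bl and from 0 to 2 in Bt/Bl. The excess gained 1 call, Aqp8, with quantile normalization. Aqp8 kept its direction in all 17 alternatives, with log2 fold changes from 1.34 to 1.85 in Bt, 1.51 to 2.11 in Bl and 1.56 to 2.07 in Bt/Bl, and so did Slc9a3 in Bt/Bl, from -1.92 to -1.66. The cause of the lost calls was not tested. Without both GF GeneChips, which was chosen after seeing the data, no member was called among the colonized states, and Slc9a3 in Bt/Bl had adjusted p values of 0.309 against Bt and 0.24 against Bl.

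Median scaling moved the median of all probe sets by -0.21 with Bt, -0.34 with Bl and -0.05 with both against GF. The values that changed sign belonged to no call. With median, 75th percentile and quantile scaling, Car1 in Bt became -0.10, -0.078 and -0.016, Slc26a3 in Bl -0.19, -0.11 and -0.11, and Car1 in Bt/Bl against Bt 0.036, 0.021 and 0.044. With the first pair of these, Cftr in Bt/Bl became -0.025 and -0.015, Aqp8 in Bt/Bl against Bl 0.26 and 0.18, and Clca1 in Bt -0.15 and -0.12. With median scaling Slc9a3 in Bl against Bt became -0.022 and the excess of Slc12a2 0.076, with quantile normalization Car1 in Bt/Bl became 0.028, and with no floor Slc9a8 in Bt/Bl became -0.0064.

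With each GeneChip left out, the values against GF ranged across 0 for Slc9a3 (-0.98 to 0.043) and Car1 (-0.066 to 0.28) in Bt, for Slc12a2 in Bl (-0.47 to 0.28), and for Cftr (-0.35 to 0.40), Car1 (-0.19 to 0.15), Car2 (-0.030 to 0.26) and Car4 (-0.39 to 0.12) in Bt/Bl. Between colonized states this held for Aqp4 in Bt/Bl against Bt (-0.44 to 1.21), for Aqp8 (-0.22 to 0.15) and Slc12a2 (-0.14 to 0.61) in Bt/Bl against Bl, for Aqp4 (-1.25 to 0.39), Slc9a3 (-0.40 to 0.63), Cftr (-0.086 to 0.39) and Car2 (-0.63 to 0.17) in Bl against Bt, and for the excess of Aqp4 (-1.55 to 0.10) and Slc26a3 (-0.14 to 0.34).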
